A study of Mus musculus with 9 samples.

Results

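Genes named Zfp and a number form a large set in the mouse, most of them for proteins that bind DNA through repeats of the C2H2 zinc finger, and 275 of them are described here across 3 groups of embryonic stem (ES) cell libraries. Members were chosen by name and by level: the rows of the count table whose symbol is Zfp followed only by digits, without Zfp42 and Zfp296, that had a mean of at least 5 CPM (counts divided by the library's total and scaled to 1000000) over the 9 libraries. The table has 24421 rows, 335 carried such a name, and 275 reached the threshold. Of the 60 below it, 1 had no count in any library and 44 had enough counts to be tested. The threshold uses the level only, so the difference between groups entered it indirectly: 22 members had a group mean below 5 CPM, and 11 of these had 2 group means below it. All 11 were highest in LAMP2A, so that order is tied to how they were chosen. Where these 11 are named, their values are given as a description without a test. Of the members with 1 group mean below 5 CPM, 8 were highest in VT and 3 in LAMP2A, and 7 were lowest in LAMP2A. Their order is thus also tied in part to how they were chosen. Counts, medians and sums over all members still include both kinds, and members with every group mean at 5 CPM or more are also counted apart. Just inside the threshold were Zfp672 (5.26 CPM), Zfp456 (5.36 CPM) and Zfp109 (5.58 CPM), and just outside were Zfp579 (4.97 CPM), Zfp128 (4.92 CPM) and Zfp558 (4.89 CPM).

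The cells were D3, a mouse ES cell line grown feeder-free on gelatin in serum with leukemia inhibitory factor. The groups, 3 libraries each, were VT (stable pCDH control vector), LAMP2A (stable overexpression of LAMP2A, the lysosomal receptor of chaperone-mediated autophagy) and LAMP2A+DM-αKG (the overexpressing cells after 4 mM DM-αKG, a cell-permeable ester of α-ketoglutarate, for 72 h). No group of control cells with DM-αKG is used here, every comparison is between cells that carry a vector, and whether a line is 1 clone is not in the labels. Nothing there says that the 3 libraries stand for separate cultures, so each p-value reflects the variation among these libraries, and that variation may be technical. Totals were 23636074 to 32809875 counts per library. Lamp2, counted over its splice forms and any introduced copy, had 57.2, 56.3 and 59.8 CPM in the VT libraries, 408, 403 and 404 for LAMP2A, and 99.9, 95.6 and 97.3 after DM-αKG. Lamp2 in the DM-αKG libraries was thus above VT and far below the LAMP2A libraries from which the group is named.

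The summed level of 8 ES cell markers was 6922 to 7305 CPM in VT, 1676 to 1678 for LAMP2A and 6042 to 6073 after DM-αKG. Sums of markers of other cell types stood highest in LAMP2A: 9 fibroblast and feeder markers (10.5 to 11.7, 154 to 156, and 11.2 to 15.1 CPM, in the same order, with Lum at 0 in VT), 8 of primitive endoderm (43.4 to 44.4, 467 to 474, and 66.3 to 70.6 CPM), 7 of trophoblast (65.9 to 71.0, 1159 to 1168, and 86.1 to 90.5 CPM, with Elf5 at 0 in VT and LAMP2A+DM-αKG) and 6 of neural cells (129 to 134, 337 to 346, and 153 to 155 CPM). Nes made up most of the rise in the neural sum, with means of 47.0 CPM in VT and 265 in LAMP2A, and 3 of the 6 genes were higher and 3 lower in LAMP2A than in VT, with a median log2 fold change of -0.12. Of the markers with enough counts to be tested, 7 of 8 of fibroblasts and feeders, 7 of 8 of primitive endoderm and 6 of 6 of trophoblast were higher, and 8 of 8 of ES cells were lower. The ES, primitive endoderm, trophoblast and neural sums did not overlap between any of the 3 groups, and the part of these markers in the results below was not tested. In bulk libraries, fewer cells of a type and less RNA per cell cannot be told apart.

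Many of these genes encode a KRAB domain before the fingers. As background, the fingers of a KRAB protein choose a DNA sequence, often in an endogenous retrovirus, and the KRAB domain binds TRIM28, which brings the histone H3K9 methyltransferase SETDB1, the NuRD complex and heterochromatin protein 1 to silence it. In ES cells this system keeps retroelements silent while DNA methylation is low and keeps methylation on imprinting control regions. KRAB genes arose by repeated tandem duplication and lie in clusters of similar genes. Members without KRAB include regulators of pluripotency and differentiation, and proteins that act on RNA, ribosomes or ubiquitin.

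Annotation by symbol in GENCODE vM21 (GRCm38, the same assembly as the authors' mm10) was found for 273 members. A KRAB profile was found in the coding sequence of 157 of them and not in 116; no match says only that the profile did not find the domain. Chromosome 7 held 69 members, chromosome 17 held 36 and chromosome 13 held 22. At least 3 C2H2 signatures were found in 248. Per kb of exon, the mean level over the 9 libraries ran from 0.721 CPM per kb for Zfp398 to 197 CPM per kb for Zfp57 (chromosome 17, 37001163 to 37010635), with a median of 4.26.

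Start regions of 6 members are shown because these are among the genes with the largest differences, and because 2 of them, Zfp600 and Zfp534, have start regions that are much alike. Each line gives the 120 bases just before the RefSeq start of the gene on its own strand (GRCm38.p6), with CG dinucleotides in capitals, the site of DNA methylation. The first 4 genes were lower in LAMP2A than in VT, and Zfp600 among them was chosen through its level in VT. The last 2 were higher, and both reached the threshold of members through their level in LAMP2A.
Zfp600, chr4:146156707-146156826, + strand: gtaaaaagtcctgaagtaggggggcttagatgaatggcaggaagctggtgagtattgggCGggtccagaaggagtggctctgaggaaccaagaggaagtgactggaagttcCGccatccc
Zfp534, chr4:147702632-147702751, - strand: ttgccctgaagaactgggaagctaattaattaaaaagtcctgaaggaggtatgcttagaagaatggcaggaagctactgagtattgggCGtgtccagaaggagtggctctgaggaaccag
Zfp459, chr13:67421419-67421538, - strand: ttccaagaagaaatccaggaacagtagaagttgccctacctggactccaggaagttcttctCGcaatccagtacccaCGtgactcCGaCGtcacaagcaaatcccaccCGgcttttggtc
Zfp819, chr7:43607049-43607168, + strand: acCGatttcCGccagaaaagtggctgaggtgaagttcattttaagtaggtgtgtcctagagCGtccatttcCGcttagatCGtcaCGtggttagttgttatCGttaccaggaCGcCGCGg
Zfp503, chr14:21989602-21989721, - strand: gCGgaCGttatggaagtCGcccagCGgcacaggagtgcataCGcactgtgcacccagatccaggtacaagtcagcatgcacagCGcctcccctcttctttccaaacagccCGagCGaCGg
Zfp467, chr6:48445091-48445210, - strand: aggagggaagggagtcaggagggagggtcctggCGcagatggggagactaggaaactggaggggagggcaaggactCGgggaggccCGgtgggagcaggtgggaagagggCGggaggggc

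Over the full 300 bases held for each gene (250 before and 50 after the start), Zfp600 and Zfp534 were identical at 240 of 269 aligned positions (89.2%). Zfp600 had 5 CG in its 300 bases, Zfp534 had 3, Zfp459 had 10, Zfp819 had 20, Zfp503 had 19 and Zfp467 had 18. The start used for Zfp534 was not found in a GENCODE transcript. The motif CG, which reads the same on both strands, was in all 226 members matched to a RefSeq start region and in 94.2% of the 27025 regions of that length. The median was 11.5 CG over 136 members with KRAB, 20 over 90 without, 7 over all regions, 10 over 32 members at least 1.5-fold lower in LAMP2A than in VT, and 19.5 over 32 members at least 1.5-fold higher. KRAB was found in 84.6% of all 39 members lower by as much and in 40.0% of all 45 higher, and medians by direction were not taken within each class. The higher set also holds members chosen through their level in LAMP2A. DNA methylation is not measured in these files.

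In LAMP2A against VT, 93 of 275 members were higher and 136 lower at an adjusted p under 0.05 (edgeR's quasi-likelihood test, Benjamini-Hochberg over 14513 genes), with a median log2 fold change of -0.14. Of all genes tested, 43.0% were higher and 42.1% lower with a median of 0.01, and of the 10705 tested genes at 5 CPM or more, 40.0% were higher and 47.5% lower with a median of -0.06. The members' shares, 33.8% higher and 49.5% lower, thus lay below the background for higher calls and near that of genes of like level for lower calls. By at least 1.5-fold, 45 members (16.4%) were higher and 39 (14.2%) lower, against 27.6% and 19.2% of all genes tested and 20.7% and 17.7% of those at 5 CPM or more. The 3 libraries of LAMP2A did not overlap those of VT in 228 members, 96 with LAMP2A above (background 43.7% of all genes tested) and 132 with LAMP2A below (41.3%). Of the 253 members with every group mean at 5 CPM or more, 79 were higher and 129 lower, with a median of -0.16.

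The members split by KRAB, a class chosen after values were seen and given without a test. Of 157 members with KRAB, 33 were higher in LAMP2A than in VT and 95 lower, with a median log2 fold change of -0.23. Of 116 without KRAB, 60 were higher and 40 lower, with a median of 0.14. Among all tested genes at 5 CPM or more, 40.0% were higher and 47.5% lower, with a median of -0.06. Among the 39 members lower by 1.5-fold or more, 33 (84.6%) had KRAB, and among the 45 higher by as much, 18 (40.0%) had it. With only the members whose every group mean was at 5 CPM or more, 26 of 144 with KRAB were higher and 90 lower, with a median of -0.23. Of the 108 without KRAB, 53 were higher and 39 lower, with a median of 0.09. By 1.5-fold, 12 of these members with KRAB and 20 without were higher. Summed over the KRAB members, the level was 4943 to 5292 CPM in the VT libraries, 4056 to 4130.3 in those of LAMP2A, and 4728 to 4794 after DM-αKG. Every LAMP2A library lay below every other library. Zfp57 alone, described below, made up a large part of the difference between VT and LAMP2A in this sum, and a sum without it was not taken. Summed over the members without KRAB, the level was 6470.0 to 6791 CPM in VT, 7003 to 7028 for LAMP2A, and 6705 to 6777 after DM-αKG, so that LAMP2A stood highest and the other groups overlapped. That sum includes Zfp503, Zfp703, Zfp608 and Zfp467, which reached the threshold through their level in LAMP2A. A sum without them was not taken, so the place of LAMP2A in it follows in part from the choice of members. The highest group mean was in VT and the lowest in LAMP2A for 73 KRAB members and 24 others, and the reverse order held for 24 KRAB members and 48 others. Genes with KRAB and at least 3 fingers under other names, which the choice of members did not use, had 3 of 32 higher in LAMP2A and 26 lower, with a median log2 fold change of -0.53.

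**Figure D1:**
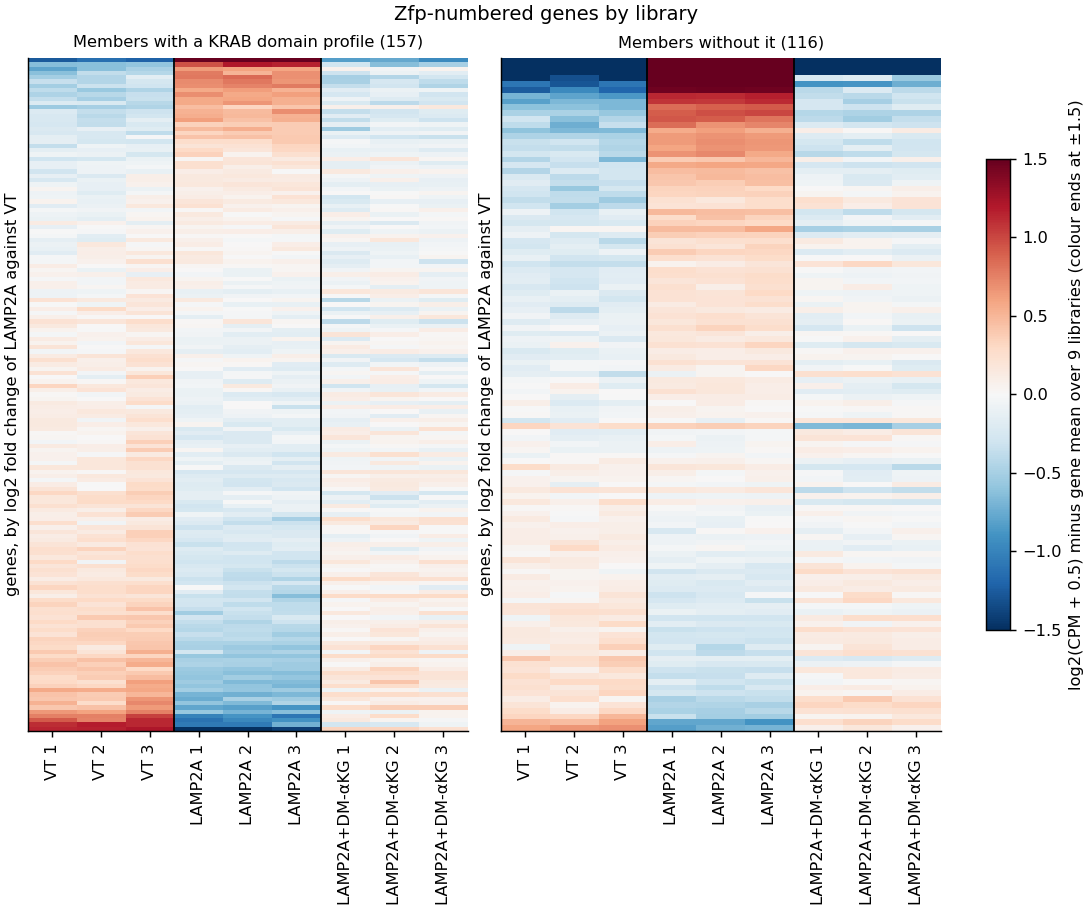
Each row is a member and each column a library; colour is log2(CPM + 0.5) minus the gene's mean over the 9 libraries, and rows are ordered by the log2 fold change of LAMP2A against VT within the 157 members with KRAB (left) and the 116 without (right), with colour ending at 1.5 either way. The 3 libraries of a group look alike, LAMP2A stands apart from both other groups, and 95 of the KRAB members were lower there against 40 of the others.

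**Figure D2:**
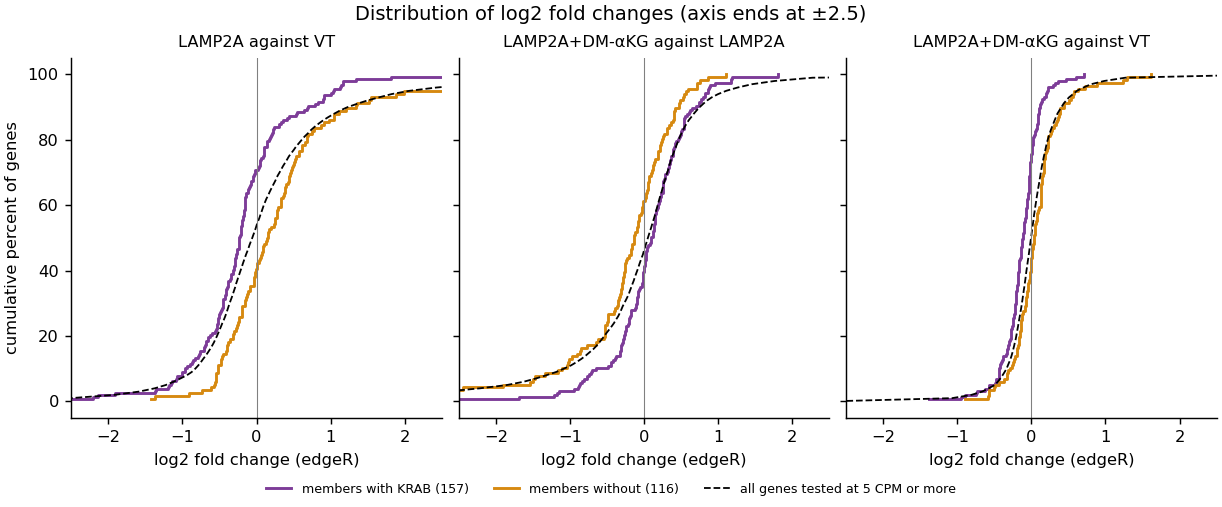
Cumulative percent of genes (y axis) by log2 fold change (x axis) in each comparison, for members with KRAB, members without, and all tested genes at 5 CPM or more (dashed). The KRAB curve lies left of the other members in LAMP2A against VT (medians -0.23 and 0.14), right of them in LAMP2A+DM-αKG against LAMP2A (0.10 and -0.13) and left again in LAMP2A+DM-αKG against VT (-0.12 and 0.03). The medians of the dashed curves are -0.06, 0.05 and -0.005 in the same order.

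The lowest members of LAMP2A against VT were led by KRAB genes, but not all had KRAB. Of the members at least 2-fold lower, 14 had KRAB and 2 were without it, the lowest of these 2 with a log2 fold change of -1.43. Zfp459 (chromosome 13) had 74.0, 74.4 and 77.6 CPM in VT, 11.5, 11.3 and 12.2 for LAMP2A and 41.8, 42.0 and 39.0 after DM-αKG. The 3 groups did not overlap and the DM-αKG libraries lay between the others. The log2 fold change was -2.71 (SE 0.05, adjusted p = 9.8e-33, edgeR) in LAMP2A against VT, 1.81 (SE 0.05, adjusted p = 2.9e-26) in LAMP2A+DM-αKG against LAMP2A and -0.90 (SE 0.04, adjusted p = 2.0e-19) in LAMP2A+DM-αKG against VT. These comparisons share libraries, so for every gene the 3 values are not independent of each other. Zfp819, described as expressed in mouse pluripotent cells, had 22.0, 23.1 and 22.3 CPM in VT, 4.48, 4.51 and 5.80 for LAMP2A and 8.12, 8.30 and 9.49 after DM-αKG. Here the DM-αKG libraries stayed nearer to LAMP2A. Its log2 fold change was -2.21 (SE 0.08) in LAMP2A and -1.39 (SE 0.07, adjusted p = 6.1e-18, edgeR) in LAMP2A+DM-αKG, both against VT, the latter being the lowest of any member in that comparison.

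Zfp600 and Zfp534, whose start regions are printed above, both lie on chromosome 4. Zfp600 had 11.1, 9.76 and 13.0 CPM in VT, 2.35, 2.64 and 2.77 for LAMP2A and 6.30, 5.83 and 5.58 after DM-αKG (log2 fold change -2.14 in LAMP2A against VT). It reached the threshold through its level in VT, so its difference from VT is a description without a test. Zfp534 had 26.1, 26.1 and 31.6 CPM, 7.41, 8.05 and 6.92 CPM, and 16.5, 18.6 and 15.8 CPM (log2 fold change -1.91, SE 0.08). Both genes showed 3 separate groups in the same order. Of their 50-base stretches of transcript, 81.2% and 68.4% occur also in another gene, so reads could be split or dropped between genes and the values are uncertain. How much the 2 genes share with each other was not counted. Among all members 21 shared 20% or more with another gene. The other lowest members were Zfp607, Zfp473, Zfp654, Zfp953, Zfp808 and Zfp931, with log2 fold changes from -1.59 to -1.20 in LAMP2A against VT. In each of these the LAMP2A libraries were lowest and those with DM-αKG lay between, as with Zfp654 (63.7, 61.9 and 68.3 CPM in VT, 25.9, 25.8 and 23.8 for LAMP2A, 53.4, 56.4 and 54.2 after DM-αKG). Zfp607 has no entry under that symbol in the annotation used.

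**Figure D3:**
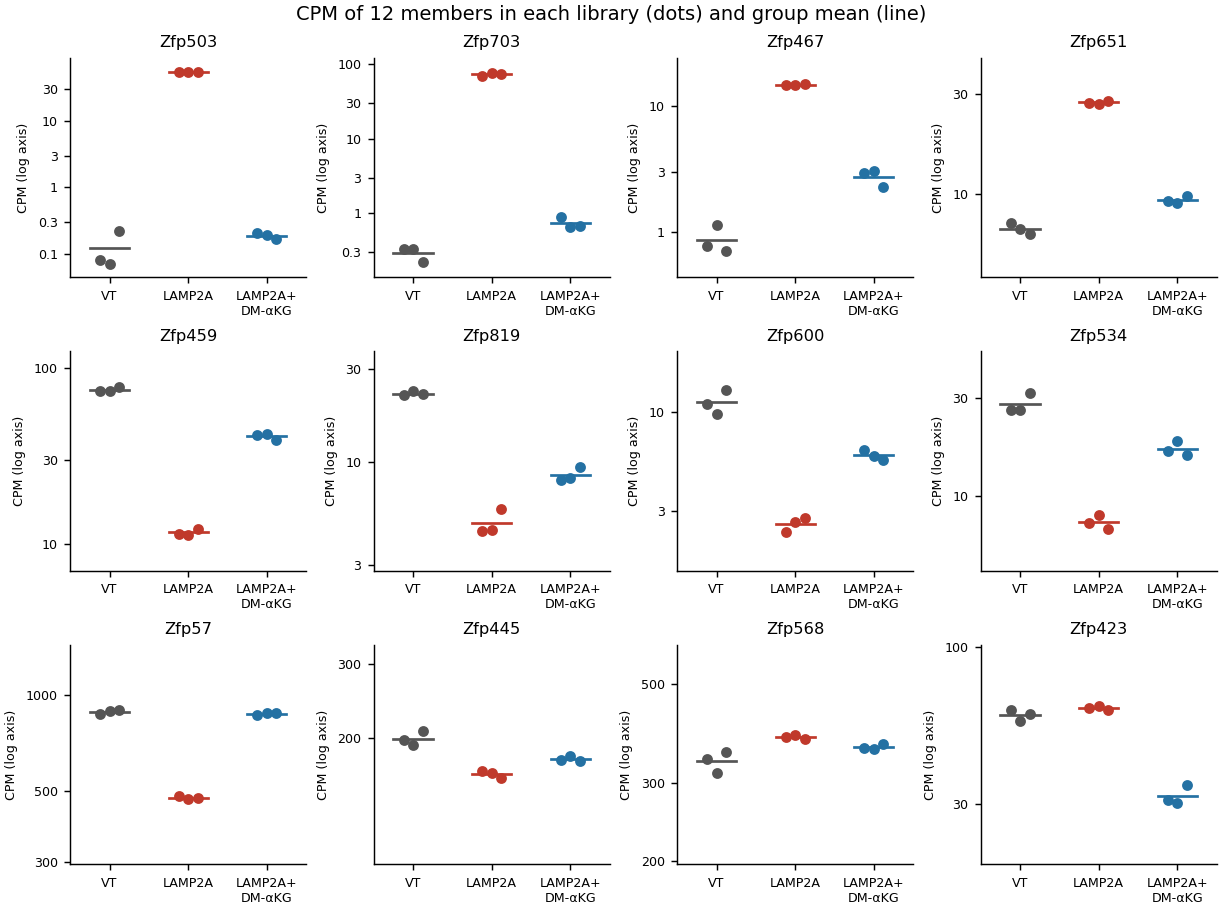
CPM on log axes for 12 members in each library (dots) with the group mean (line), by group. Zfp503, Zfp703, Zfp467 and Zfp651 are highest in LAMP2A, Zfp459, Zfp819, Zfp600 and Zfp534 are lowest there with DM-αKG between, and Zfp423 is lowest in LAMP2A+DM-αKG at 30.2 to 34.8 CPM. Zfp503, Zfp703 and Zfp467 were chosen through their level in LAMP2A, and Zfp600 through its level in VT.

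Zfp57 and Zfp445 are the KRAB genes known for keeping methylation on imprinted alleles, Zfp57 by binding a methylated motif. Both were lower in LAMP2A than in VT. Zfp57, the member with the highest level per kb, had 872, 891 and 893 CPM in VT, 482, 474 and 474 for LAMP2A and 865, 875 and 873 after DM-αKG. The DM-αKG libraries overlapped those of VT. Its log2 fold change was -0.90 (SE 0.03, adjusted p = 1.5e-25, edgeR) in LAMP2A against VT and 0.87 (SE 0.03, adjusted p = 6.7e-25) in LAMP2A+DM-αKG against LAMP2A, and against VT it was -0.04 in LAMP2A+DM-αKG (SE 0.03, adjusted p = 0.24). Zfp445 moved less: 198, 193 and 208 CPM in VT, 167, 165 and 162 for LAMP2A, and 177, 182 and 177 after DM-αKG. All 3 groups were apart, with LAMP2A+DM-αKG 0.17 below VT on the log2 scale (adjusted p = 1.4e-05, edgeR).

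At 5 CPM or more, 47.5% of tested genes were lower in LAMP2A than in VT and 40.0% were higher. Of 5 members on a list of KRAB genes of retroelements and the Igf2 promoter, 1 was higher and 4 were lower, of which Zfp600 was chosen through its level in VT. Beside Zfp819 and Zfp600, these were Zfp809, which recognises the primer binding site of a murine retrovirus (38.6, 36.9 and 43.6 CPM in VT, 29.5, 28.7 and 29.2 for LAMP2A, 34.4, 33.4 and 33.7 after DM-αKG), and Zfp932 (log2 fold change -0.60, SE 0.07, with 37.0% of its 50-base stretches shared). Zfp708, on the same list, was below the threshold of members and did not pass in any comparison. Zfp568, which represses a placental promoter of the growth factor gene Igf2, was the one that was higher: 340.0, 315 and 352 CPM in VT, 379, 384 and 376 for LAMP2A, and 359.9, 357 and 368 after DM-αKG (log2 fold change of LAMP2A against VT 0.17, SE 0.03, adjusted p = 1.4e-05, edgeR). Igf2, over all its promoters, had 0.532, 0.585 and 1.00 CPM in VT, 1756, 1756 and 1782 for LAMP2A and 2.58, 2.24 and 2.54 after DM-αKG.

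Of the 24 genes of the co-repressor and heterochromatin machinery through which KRAB proteins act, 5 were higher in LAMP2A than in VT and 17 lower, with a median log2 fold change of -0.29. The shares among all genes tested were 43.0% and 42.1%, and among those at 5 CPM or more 40.0% and 47.5%. Trim28, the KRAB co-repressor, had 2194, 2140.3 and 2058 CPM in VT, 1263, 1275 and 1279 for LAMP2A and 1676, 1649 and 1664 after DM-αKG. The 3 groups did not overlap (log2 fold change of LAMP2A against VT -0.76, SE 0.03, adjusted p = 8.3e-23, edgeR). Setdb1 differed less, by -0.27 (SE 0.03), and was 0.10 above VT in LAMP2A+DM-αKG (SE 0.03, adjusted p = 0.0054, edgeR). Those lower by at least 1.5-fold were, beside Trim28, the chromatin remodelers Hells (-1.01) and Smarcad1 (-0.94), Morc3 (-0.68), Atf7ip2 (-0.67) and the deacetylase Hdac2 (-0.59), given as log2 fold changes in LAMP2A against VT. Those higher by as much were Chd3 (1.92) and Rbbp7 (1.75), both of NuRD, and the H3K9 methyltransferase gene Suv39h1 (1.91). Smarcad1 stayed low with DM-αKG, at 201, 202 and 198 CPM against 323, 319 and 344 in VT and 174, 169.6 and 173 in LAMP2A.

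Of the 10 highest members in LAMP2A, Zfp503, Zfp703 and Zfp608 had few counts in the other groups. Zfp503 and Zfp703 belong to the NET family of co-repressors, which have few fingers. Zfp503 had 0.0819, 0.0731 and 0.222 CPM in VT (10 counts in all), 53.6, 52.9 and 53.4 for LAMP2A and 0.212, 0.193 and 0.167 after DM-αKG (15 counts). Zfp703 had 0.328, 0.329 and 0.222 CPM in VT, 71.0, 76.2 and 74.1 for LAMP2A and 0.888, 0.657 and 0.668 after DM-αKG. Both had next to no counts outside LAMP2A, and with so few counts a fitted fold change is not given. Zfp608, a paralog of the neural gene Zfp609, had 14 counts in all in VT, 58.8, 57.9 and 58.4 CPM for LAMP2A and 0.550, 0.502 and 0.267 CPM after DM-αKG. Zfp467, known for favouring fat over bone differentiation, had 0.778, 1.13 and 0.704 CPM in VT, 14.8, 14.6 and 15.1 for LAMP2A and 2.96, 3.05 and 2.27 after DM-αKG. In the DM-αKG libraries Zfp467 lay between the groups and apart from both. These 4, with Zfp202 (KRAB and SCAN; 1.13, 15.0 and 1.58 CPM as means of VT, LAMP2A and LAMP2A+DM-αKG), Zfp362 (3.16, 31.6 and 4.04 CPM), Zfp629 (2.54, 17.8 and 4.77 CPM) and Zfp316 (4.28, 15.3 and 4.78 CPM), are among the 11 chosen through their level in LAMP2A.

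Of the 10 highest members, Zfp651 and Zfp768 did not depend on that level. Zfp651 had 7.29, 6.80 and 6.41 CPM in VT, 27.2, 26.9 and 27.7 for LAMP2A and 9.22, 9.04 and 9.75 after DM-αKG. The groups did not overlap (log2 fold change of LAMP2A against VT 1.99, SE 0.06, adjusted p = 3.4e-25, edgeR). Zfp768 had 4.95, 5.48 and 5.48 CPM in VT, 19.6, 19.4 and 20.3 for LAMP2A and 7.57, 6.30 and 7.12 after DM-αKG (log2 fold change 1.88, SE 0.07). At the other end, the members with the smallest difference were Zfp511 (19.2, 19.3 and 19.8 CPM as means of VT, LAMP2A and LAMP2A+DM-αKG), Zfp62, Zfp652, Zfp213 and Zfp943, whose VT and LAMP2A libraries overlapped and whose log2 fold changes lay between -0.02 and 0.00.

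Among 10 members on a list of regulators of differentiation, 6 were higher in LAMP2A than in VT and 3 lower, but 4 of those higher are Zfp503, Zfp703, Zfp608 and Zfp467. Of the remaining 6, 2 were higher and 3 lower. Among tested genes at 5 CPM or more, the shares were 40.0% and 47.5%. The fat and neural regulator Zfp521 had 14.1, 11.1 and 12.8 CPM in VT, 33.8, 33.3 and 30.8 for LAMP2A and 13.2, 12.1 and 13.6 after DM-αKG (log2 fold change of LAMP2A against VT 1.36, SE 0.06). Zfp516, of brown fat, rose by 0.86 (SE 0.03), and in both genes the DM-αKG libraries overlapped VT. The paralog of Zfp521, Zfp423, known for committing cells to the fat lineage, behaved otherwise: 61.5, 56.7 and 59.8 CPM in VT, 62.4, 63.6 and 61.9 for LAMP2A, and 30.8, 30.2 and 34.8 after DM-αKG. It did not pass in LAMP2A against VT (log2 fold change 0.07, SE 0.04, adjusted p = 0.13, edgeR), and was lower in LAMP2A+DM-αKG than in both VT (-0.90, SE 0.05, adjusted p = 5.2e-18) and LAMP2A (-0.97, SE 0.05, adjusted p = 3.1e-20). Lower in LAMP2A were Zfp532 (-0.52), Zfp638 (-0.47) and Zfp64 (-0.09). The call of Zfp64 was lost with DESeq2 and without VT replicate 1, LAMP2A replicate 1 or LAMP2A replicate 3.

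Of 9 members on a list of regulators of pluripotency, 5 were higher in LAMP2A than in VT and 4 lower, where 43.0% and 42.1% of all genes tested were. The largest differences were 0.62 (SE 0.04) for Zfp609, 0.61 (SE 0.04) for Zfp462, which holds back neural differentiation, and -0.55 (SE 0.05) for Zfp143, an activator of the Nanog promoter. Zfp609 had 93.5, 80.8 and 87.5 CPM in VT, 133, 134 and 138 for LAMP2A and 133, 123 and 132 after DM-αKG. Its DM-αKG libraries lay above all VT libraries and reached those of LAMP2A. Zfp462 had 181, 154 and 177 CPM in VT, 266, 263 and 260.4 for LAMP2A and 157, 147 and 159 after DM-αKG, where it overlapped VT. Zfp281, which restrains Nanog, had 188, 177 and 201 CPM in VT, 182, 176 and 177 for LAMP2A and 144, 140.0 and 139 after DM-αKG. Its difference of -0.09 in LAMP2A passed the threshold, but the call was lost with DESeq2 and without VT replicate 3, LAMP2A replicate 2 or LAMP2A replicate 3 (without VT replicate 3 it was -0.04), while LAMP2A+DM-αKG lay below both other groups. The other members were Zfp148, Zfp706 and Zfp217 (0.28, 0.24 and 0.14, higher) and Zfp207 and Zfp219 (-0.45 and -0.24, lower).

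Of 9 members that act on RNA, ribosomes or ubiquitin, 4 were higher and 5 lower in LAMP2A than in VT. The shares among tested genes at 5 CPM or more were 40.0% and 47.5%. Zfp106, an RNA-binding protein, had 771, 697 and 778 CPM in VT, 497, 492 and 483 for LAMP2A and 842, 819 and 841 after DM-αKG. Zfp598, the ubiquitin ligase that marks collided ribosomes, went the same way (144, 137 and 134 CPM; 103, 105 and 106 CPM; 156, 152 and 149.8 CPM). In both, DM-αKG libraries stood above VT as well (log2 fold changes 0.14 and 0.12, adjusted p = 0.00037 and 0.0015, edgeR). Zfp36, tristetraprolin, which destabilises mRNA through fingers of another type, was higher in both other groups than in VT: 10.8, 10.8 and 9.56 CPM in VT, 16.6, 15.8 and 16.9 for LAMP2A, and 16.8, 15.6 and 16.3 after DM-αKG. The others lay between 0.38 for Zfp346 and -0.20 for Zfp622 and Zfp593 on the log2 scale; the call of Zfp593 was lost without VT replicate 2.

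Neighbouring members were set into clusters where the next member began within 200 kb of the end of the last, a grouping chosen after values were seen and given without a test. There were 14 clusters of at least 4 members, with 96 members in all, of which 24 were higher and 53 (55.2%) lower in LAMP2A than in VT, against 40.0% and 47.5% of genes at 5 CPM or more. On chromosome 13, from 67121660 to 67792512, 9 of 11 KRAB members were lower and none passed as higher, with log2 fold changes from -2.71 (Zfp459) to 0.07 (Zfp87). On chromosome 17, from 32765496 to 33110705, 7 of 8 were lower, from -1.14 for Zfp870 to -0.04 for Zfp811, which did not pass. On chromosome 7, from 27731389 to 28014115, all 4 (Zfp60, Zfp626, Zfp59 and Zfp850) were lower, with a median of -0.88. Zfp59 there, with 52.4% of its 50-base stretches shared, had 40.8, 41.2 and 42.2 CPM in VT, 21.4, 20.5 and 20.4 for LAMP2A and 38.3, 38.5 and 36.9 after DM-αKG.

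Other clusters were mixed or higher. On chromosome 8, from 69610857 to 69791178, 3 of 4 KRAB members were higher in LAMP2A, among them Zfp869 (14.9, 15.5 and 16.0 CPM in VT, 30.6, 27.6 and 29.5 for LAMP2A, 23.3, 23.3 and 24.6 after DM-αKG), and on chromosome 9, from 20345136 to 20605409, 4 of 5 were. Neighbours could also go opposite ways: between 21423227 and 22071168 on chromosome 17, Zfp948 was 1.04 higher (SE 0.05) and Zfp229 1.16 lower on the log2 scale (SE 0.04). KRAB members outside clusters of 4 had 17 of 75 higher and 48 lower, and those inside had 16 of 82 higher and 47 lower, and whether these differ was not tested. Genes of a cluster can share reads: 9 of the 39 members at least 1.5-fold lower shared 20% or more of their 50-base stretches with another gene, against 1 of the 45 at least 1.5-fold higher. Among KRAB members under that share, 31 of 137 were higher and 82 lower.

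**Figure D4:**
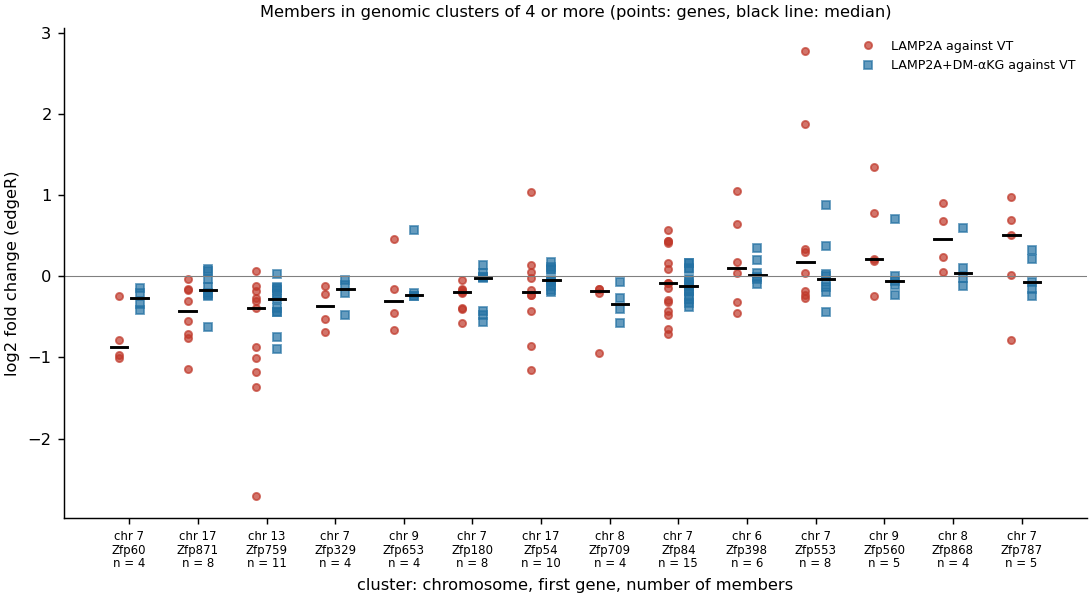
Log2 fold change (y axis) of each member in the 14 clusters, for LAMP2A against VT (circles) and LAMP2A+DM-αKG against VT (squares), with the median of each as a black line; clusters are ordered by the first median and named by chromosome and first gene. The chromosome 7 cluster that starts with Zfp60 has the lowest median, -0.88, and in 12 of 14 clusters the median with DM-αKG lies closer to 0.

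In LAMP2A+DM-αKG against LAMP2A, 106 members were higher and 107 lower (edgeR, adjusted p under 0.05; of all genes tested 41.1% were higher and 42.1% lower), with a median log2 fold change of 0.01. Among genes at 5 CPM or more, 46.6% were higher and 39.5% lower. By at least 1.5-fold, 26 members were higher and 38 lower, against 16.4% and 25.4% of all genes tested and 14.6% and 18.6% of those at 5 CPM or more. Of the 253 members with every group mean at 5 CPM or more, 20 were higher and 26 lower by as much. Libraries did not overlap in 109 members with DM-αKG above (42.6% of all genes tested) and 110 with it below (43.0%). Members with KRAB had 70 of 157 higher (44.6%) and 45 lower (28.7%), and those without had 35 of 116 higher (30.2%) and 62 lower (53.4%). The share of KRAB members called higher was thus near that of genes at 5 CPM or more. The 5 highest were Zfp459 (1.81, SE 0.05), Zfp600 (1.19, SE 0.12), Zfp808 (1.18, SE 0.06), Zfp534 (1.17, SE 0.09) and Zfp654 (1.11, SE 0.05), as log2 fold changes. Zfp808, a KRAB gene with 28.2% of its 50-base stretches shared, had 45.4, 46.4 and 53.4 CPM in VT, 19.7, 19.3 and 18.3 for LAMP2A and 41.5, 44.2 and 44.2 after DM-αKG. The 5 lowest were Zfp503, Zfp608, Zfp703, Zfp202 and Zfp362, all chosen through their level in LAMP2A.

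In LAMP2A+DM-αKG against VT the members differed less: 57 were higher and 100 lower (of all genes tested 29.3% were higher and 29.3% lower; at 5 CPM or more 31.9% and 33.6%), with a median log2 fold change of -0.05. By 1.5-fold or more 8 were higher and 9 lower, against 8.58% and 6.3% of all genes tested and 5.21% and 3.88% of genes at 5 CPM or more. Of the 253 members with every group mean at 5 CPM or more, 3 were higher and 6 lower by as much. Libraries did not overlap in 67 members with DM-αKG above (32.7% of all genes tested) and 97 with it below (28.4%). With KRAB, 14 of 157 were higher and 70 lower, and without, 43 of 116 were higher and 29 lower. The 5 lowest were Zfp819, Zfp600 (chosen through its level in VT), Zfp459, Zfp423 and Zfp953, the last with 19.3, 18.6 and 20.9 CPM in VT, 8.02, 7.30 and 7.63 for LAMP2A and 11.5, 11.2 and 12.6 after DM-αKG. The 5 highest were Zfp467, Zfp703, Zfp608, Zfp629 and Zfp395. Zfp395 was not chosen through LAMP2A: it had 43.7, 41.6 and 42.0 CPM in VT, 98.1, 102 and 96.7 for LAMP2A and 71.3, 67.6 and 72.9 after DM-αKG (log2 fold change of LAMP2A+DM-αKG against VT 0.72, SE 0.04, adjusted p = 6.7e-17, edgeR). Its 3 groups were apart, with DM-αKG between.

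Genes of other zinc finger names at 5 CPM or more were tested in the same fit. Of all tested genes at that level, 40.0% were higher in LAMP2A than in VT and 47.5% lower. Of 33 Zbtb genes, 14 were higher and 7 lower in LAMP2A than in VT (median log2 fold change 0.08), of 18 Zscan and Zkscan genes 9 and 7 (0.15), and of 19 Zfp genes whose names hold letters, 5 were higher and 13 lower (-0.38). Whether the members differ from these families was not tested. In the authors' deposited table of LAMP2A against VT, 89 members were called higher and 122 lower, and all 211 were called here with the same sign. In the authors' deposited table of LAMP2A+DM-αKG against LAMP2A, 99 were called in each direction, and 197 of the 198 were called here with the same sign.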

How the data were processed

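Deposited by the authors were whole-number read counts by gene symbol for 9 libraries from a stranded mRNA kit; the submitters' processing notes name STAR 2.7.1, HTSeq 0.11.2, DESeq2 and mm10 as build. The counting's annotation and strand setting were not given in these sources. Reads of overlapping and antisense genes may therefore be mixed (89 members have a gene on the opposite strand, 55 on the same) and near copies are uncertain. The authors also deposited tables of 2 comparisons with, per the file headers, a mean signal (normalized counts), a log2 fold change, a test score, and a p-value, raw and adjusted; the log2 fold changes and adjusted p-values were used to count calls.

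Counts were fitted with edgeR 4.0.16 in R 4.3.3 (filterByExpr, TMM, estimateDisp, glmQLFit with robust estimation, glmQLFTest), on all 9 libraries together with a mean for each of 3 groups, 6 residual degrees of freedom, and Benjamini-Hochberg adjustment over the 14513 genes kept, all 275 members among them. The common coefficient of variation was 2.74%, so small differences passed. The fit was also run on simulated counts with library sizes and mean levels from these data. There every gene had a coefficient of variation of 2.74% and most genes were unchanged. That setting differs from these data, so the run cannot show how the fit performs on them. Levels are CPM of the library total with SD over 3 libraries. SE is the size of the log2 fold change divided by root F and is left out where a group mean is below 10 counts. A KRAB profile was built with pyhmmer 0.12.3 from 220 seed domains (E-value up to 0.0001); fingers and shared 50-base stretches were counted in GENCODE vM21 transcripts, and start regions came from RefSeq.

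Named were the 10 highest and 10 lowest members of LAMP2A against VT, 5 and 5 of each other comparison, the 5 smallest differences, the members of the gene lists, the 3 nearest to the threshold on each side, and co-repressors changed 1.5-fold; members named for a cluster, Zfp59, Zfp869, Zfp948 and Zfp229 among them, were chosen after their values were seen. The members and the lists were chosen with earlier results of these data known. Libraries within a group all differed by more than counting noise (chi-square over its degrees of freedom 1.19 to 5.66). Such values cannot show whether the libraries are separate cultures, and the fit treated each as a replicate. Alternatives were DESeq2 1.42.0, other scalings and filters, other thresholds for members, a replicate block, and leaving out each library.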

Additional observations from a re-analysis of the deposited data

How the results depend on the processing

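The counts of members higher and lower in the 3 comparisons moved by less than 1.5 times under DESeq2, other scalings, no filter, a fit of the 2 groups alone, and each other threshold for members. Asking for 1.5-fold left 45 higher and 39 lower in LAMP2A against VT, 26 and 38 in LAMP2A+DM-αKG against LAMP2A, and 8 and 9 in LAMP2A+DM-αKG against VT. With every group mean at 5 CPM or more these became 32 and 32, 20 and 26, and 3 and 6. The median log2 fold change of LAMP2A+DM-αKG against LAMP2A changed sign, to -0.002, for members at 5 CPM in at least 1 group. Without 1 library each, in LAMP2A against VT 91 to 97 members were higher and 126 to 137 lower with medians of -0.1411 to -0.1008; in LAMP2A+DM-αKG against LAMP2A 100 to 109 and 97 to 108, with 0.0045 to 0.0272; and in LAMP2A+DM-αKG against VT 46 to 57 and 86 to 110, with -0.0694 to -0.0259.

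With the replicate block the medians were -0.1354, 0.0074 and -0.0505 in the same order, and 228 of 229, 211 of 213 and 157 of 157 calls kept their sign and threshold. Deviations from group means had correlations of -0.112 to 0.141 between same-numbered libraries and -0.148 to 0.165 between the others. Such values cannot show whether same-numbered libraries shared a culture or batch, and the labels give only the number. DESeq2 kept 210 of 229, 192 of 213 and 133 of 157 calls. No called member changed sign in any alternative run. Changes of sign were in genes that had not passed. Against VT in LAMP2A, Zfp62 was 0.0070 with DESeq2, 0.0083 with its size factors in edgeR and 0.0084 with library totals. Against VT after DM-αKG, Zfp516 was 0.0118 with library totals, 8.27e-05 with no filter and 0.0033 with the 2 groups alone. Without 1 library each, LAMP2A against VT ranged from -0.0638 to 0.0390 for Zfp213, -0.0383 to 0.0261 for Zfp511, -0.0296 to 0.0343 for Zfp62, -0.0218 to 0.0427 for Zfp652 and -0.0742 to 0.0201 for Zfp943. LAMP2A+DM-αKG against LAMP2A ranged from -0.0478 to 0.0095 for Zfp36 and -0.0177 to 0.0466 for Zfp830. LAMP2A+DM-αKG against VT ranged from -0.0716 to 0.0474 for Zfp109, -0.0089 to 0.0552 for Zfp511, -0.0223 to 0.0191 for Zfp516 and -0.0613 to 0.1008 for Zfp521. The cause of these changes was not tested.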
